A study of Mus musculus with 18 samples.

Results

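Biliary epithelial cells (BECs), the cells that line the bile ducts, were compared between mice with a ligated bile duct (BDL) and sham-operated mice (Sham). The account covers every gene that reached 1 FPKM (fragments per kilobase of transcript, corrected by the authors for library size) in at least 3 of the 6 BECs libraries. This left 13573 genes of the 54532 in the deposited table. Of these, 11464 reached 1 FPKM in all 6 libraries and 733 in exactly 3, and 784 further genes that reached it in 2 were left out. Among those tested, 165 genes passed only through the 3 BDL libraries and 158 only through the 3 Sham libraries. Such genes had to differ to be tested, so no p is given below for those named (Cxcr2, Slc7a11, Nlrp6 and Slc26a3).

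The 6 libraries belong to a set of 18 that also holds primary hepatocytes (MPH) and Kupffer-like cells, each with 3 BDL and 3 Sham libraries. The groups used here are, in BECs, BDL 1, 2 and 3 and Sham 1, 2 and 3, and the matching groups of the other preparations serve only to show where BECs differ. All were polyadenylated RNA from cells isolated from mouse liver. Not given in the sources used here were strain, age, time after surgery, the way the cells were isolated and whether separate mice gave the libraries. All p-values therefore rest on the spread between libraries. Each group held male and female libraries (below), so each came from more than 1 animal. Hepatic stellate cells were not analysed here.

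Cholangiocytes modify bile by secreting bicarbonate and water through cAMP-driven channels and exchangers, and they hold their identity through factors such as SOX9 and the Notch pathway. When bile outflow is blocked, bile ducts multiply in what is called the ductular reaction, and the epithelium is known to release chemokines, matrix proteins and growth factors that act on leukocytes and on matrix-producing cells. Ligation of the common bile duct is a standard surgical model of this kind of obstruction.

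Each BECs library held 15451625 to 20577889 reads in genes. Libraries correlated over the tested genes at 0.922 to 0.960 within BDL, with BDL 3 the more distant, at 0.945 to 0.961 within Sham, and at 0.875 to 0.916 between the groups (Pearson's r of log2(FPKM + 1), across genes, which are not independent replicates). The Y-linked gene Ddx3y and the X-inactivation RNA Xist showed BDL 1, Sham 1 and Sham 2 to be male and BDL 2, BDL 3 and Sham 3 to be female, so sex was unevenly spread over the groups.

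The 3 defining markers placed the libraries as biliary. Krt19, a keratin of duct cells, stood at 291, 384 and 459 FPKM in BDL 1, 2 and 3 and at 459, 588 and 387 FPKM in Sham 1, 2 and 3. Epcam, an epithelial adhesion molecule, stood at 233, 231 and 173 FPKM in BDL and at 196, 224 and 203 FPKM in Sham. Krt7, a second duct keratin, stood at 31.8, 31.2 and 33.7 FPKM in BDL and at 19.6, 27.7 and 21 FPKM in Sham. Means of the 3 genes in the other preparations were between 0.135 and 11.2 FPKM.

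Transcripts of other cell types were present in every library and moved with ligation. The summed level of 16 hepatocyte markers was 806, 554.2 and 197.1 FPKM in BDL 1, 2 and 3, against 3741, 1751 and 4321 FPKM in Sham 1, 2 and 3. The 12 neutrophil markers summed to 321.9, 407.1 and 481.8 FPKM in BDL and to 39.47, 38.54 and 141.5 FPKM in Sham. The 12 endothelial markers summed to 137.3, 125.4 and 157.6 FPKM in BDL and to 247.5, 275.8 and 331.3 FPKM in Sham. The groups did not overlap in any of these sums. The 12 monocyte and dendritic cell markers also stood apart, at 139 to 275.4 FPKM in BDL and 85.77 to 91 FPKM in Sham, while the sums for Kupffer cells, stellate cells and fibroblasts, T and NK cells, B and plasma cells, and platelets overlapped between the groups. The 12 biliary markers summed to 2907 to 3329 FPKM in BDL and to 3891 to 4250 FPKM in Sham. No marker in any list was at 0 in all 6 libraries. In bulk samples, fewer cells of a type and less RNA per cell cannot be told apart.

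**Figure D1:**
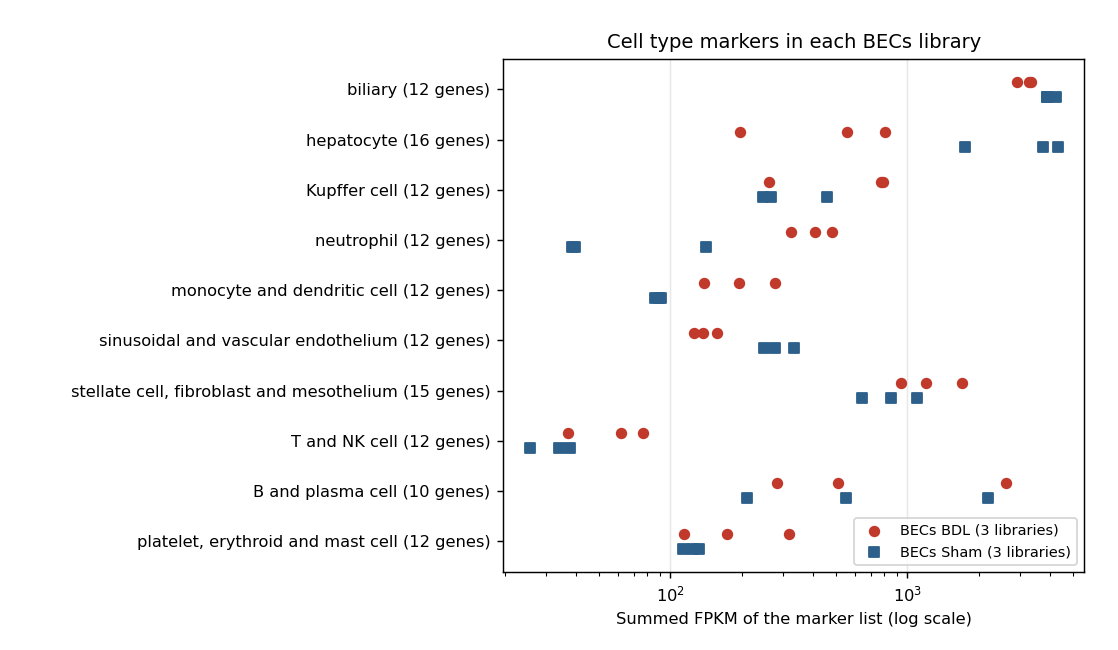
Summed FPKM of each marker list (log scale) in each BECs library, with BDL as red circles and Sham as blue squares. Hepatocyte sums were 197.1 to 806 in BDL and 1751 to 4321 in Sham, and neutrophil sums were 321.9 to 481.8 in BDL and 38.54 to 141.5 in Sham.

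Promoters of 3 genes described below are shown because their letters can be set beside the members that moved: a pair of neighbouring chemokine genes of which 1 rose, and a matrix protease that rose. Each runs from 250 bases before to 50 bases after the annotated start (RefSeq, GRCm38.p6), 5′ to 3′ on the gene's strand, with the searched motif in capitals. Capitals mark GGANTTNCC, a core for NF-kappa-B, in Cxcl2 (chr5:90903649-90903948, plus strand) and Cxcl1 (chr5:90890995-90891294, plus strand). They mark TGANTCA, a core for AP-1, in Mmp7 (chr9:7691840-7692139, plus strand). Mmp7 has 2 annotated promoters in RefSeq, and only the first, which alone holds the match, is shown.
Cxcl2: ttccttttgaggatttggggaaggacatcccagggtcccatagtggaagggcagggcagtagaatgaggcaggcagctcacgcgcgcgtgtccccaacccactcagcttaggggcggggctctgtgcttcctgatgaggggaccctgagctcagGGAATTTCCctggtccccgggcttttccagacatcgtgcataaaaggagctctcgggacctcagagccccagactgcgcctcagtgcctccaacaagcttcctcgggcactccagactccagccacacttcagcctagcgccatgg
Cxcl1: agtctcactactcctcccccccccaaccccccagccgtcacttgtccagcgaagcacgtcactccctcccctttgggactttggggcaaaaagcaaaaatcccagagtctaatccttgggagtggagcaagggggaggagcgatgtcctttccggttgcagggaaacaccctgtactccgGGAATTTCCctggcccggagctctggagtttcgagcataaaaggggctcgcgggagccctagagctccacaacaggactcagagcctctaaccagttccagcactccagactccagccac
Mmp7: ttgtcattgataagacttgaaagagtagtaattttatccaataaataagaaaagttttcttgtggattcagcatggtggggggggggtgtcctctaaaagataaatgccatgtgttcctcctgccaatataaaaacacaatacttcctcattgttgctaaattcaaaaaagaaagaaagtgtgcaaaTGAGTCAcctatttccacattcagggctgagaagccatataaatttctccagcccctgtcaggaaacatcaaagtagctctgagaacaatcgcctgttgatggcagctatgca

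Of the 13573 genes tested, 9733 matched a promoter in the RefSeq table, and both strands were searched. A gene counted once if any of its promoters held a match, so genes with several promoters had more chances. GGANTTNCC was found in 3.95% of all single promoters. By gene it was found in 4.54% of all genes with a promoter and 5.04% of the tested ones. It was found in 26 of 271 genes called higher in BDL (9.59%) and in 16 of 460 called lower (3.48%). TGANTCA was found in 7.81% of all single promoters. By gene it was found in 8.97% of all genes with a promoter, in 6.74% of the tested ones, in 30 of the 271 (11.1%) and in 43 of the 460 (9.35%). The motifs are short, the counts are small, no pair of motifs overlapped in the 3 promoters shown, and a match is a description of letters, not of binding.

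Ligation was compared with sham surgery over all tested genes on the log2(FPKM + 1) scale, on which the change of low genes is understated. Calls were made with limma at an adjusted p (Benjamini-Hochberg) under 0.05. In all, 1040 genes were called (7.66%), of which 402 were higher in BDL (2.96%) and 638 lower (4.7%), while 3526 had an unadjusted p under 0.05. These shares of all tested genes are the background for every count of list members called below. The calls include 76 of the genes that passed the level filter only through BDL and 72 that passed it only through Sham. The median change over all tested genes was -0.03, and the groups did not overlap in 4323 genes (31.8%). The split depended on scaling: 38.7% of called genes were higher in BDL with the values as deposited, against 498 of 947 after scaling to a common sum, 523 of 989 after scaling to recovered reads, 580 of 1077 with limma voom, 459 of 1018 after quantile normalization and 419 of 952 with median ratio scaling. Without Sham 1 only 86 genes were called, without Sham 2 there were 357, without Sham 3 there were 636, without BDL 1 there were 255, without BDL 2 there were 407, and without BDL 3 there were 1033. With sex as a covariate 576 were called. All 402 genes called higher and all 638 called lower had the same direction between the male and between the female libraries, which follows in part from the small spread a call needs. Of the 141 called genes that the rule for named genes takes, 27 were still called without Sham 1, 58 without Sham 2, 78 without Sham 3, 55 without BDL 1, 66 without BDL 2 and 106 without BDL 3. A core of 61 genes, 38 higher and 23 lower, was called whichever of the 6 libraries was left out.

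**Figure D2:**
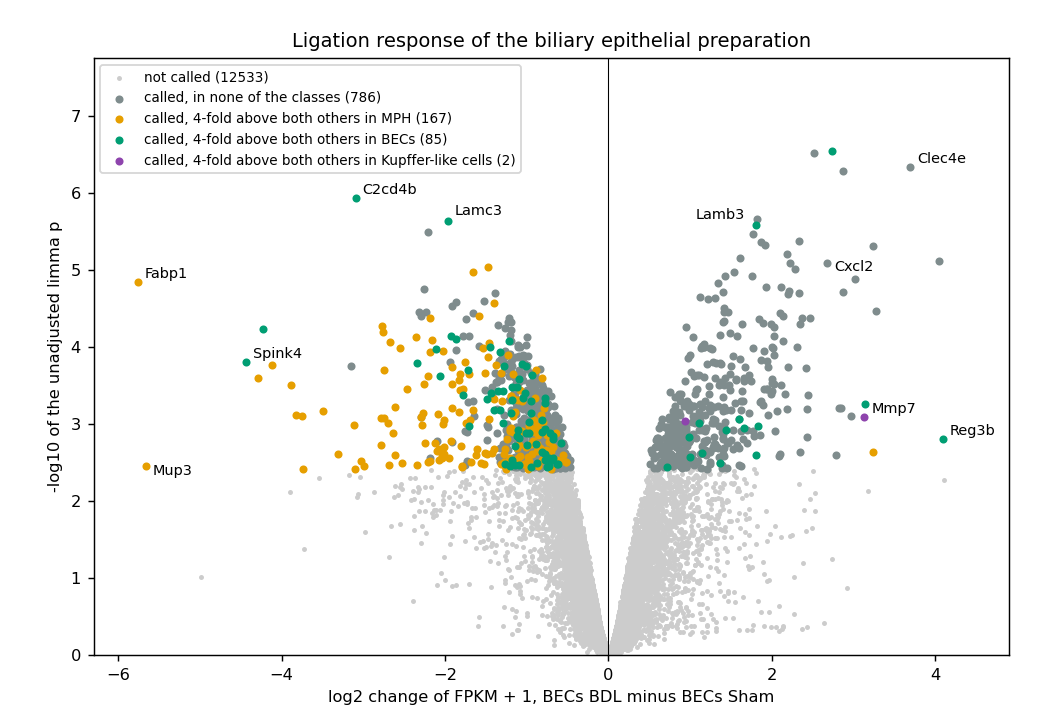
Change of each tested gene in BECs (x axis, log2 of FPKM + 1, BDL minus Sham) against -log10 of the unadjusted limma p (y axis), with called genes coloured by the preparation in which they stood at least 4-fold above both others. Called genes of MPH lie almost all on the side lower in BDL (1 higher, 166 lower), and those of BECs lie on both sides (15 higher, 70 lower).

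The called genes were sorted by where they are most expressed, using means over BDL and Sham weighted alike, with a difference of at least 2 on the log2 scale (4-fold) from both other preparations. Of 567 genes that stood highest in BECs, 15 were higher in BDL (2.65%) and 70 lower (12.3%), with a median change of -0.28. Of 561 genes highest in MPH, 1 was higher and 166 were lower (29.6%), with a median of -0.93. The 166 became 7 without Sham 1, 45 without Sham 3, 54 without BDL 2, 62 without BDL 1, 101 without Sham 2, 121 without BDL 3 and 66 with sex as a covariate. Of 20 highest in Kupffer-like cells, 2 were higher and 0 lower, and of 12425 in no class, 384 were higher (3.09%) and 402 lower (3.24%). The biliary class, the genes highest in BECs, is not purely epithelial, since it also holds 6 of 14 tested markers of stellate cells, fibroblasts and mesothelium. The class holds 1 of 12 tested endothelial markers as well, Vwf, which was called lower. Counts of the class ran from 2 higher and 4 lower without Sham 1 to 30 higher and 74 lower without BDL 3, and were 5 higher and 45 lower with sex as a covariate. Among all genes called higher, 262 of 402 (65.2%) had a higher mean in Kupffer-like cells than in BECs, against 45.8% of all tested genes.

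The genes of the biliary class that rose encode secreted defence proteins, proteases and a basement membrane chain, among others. Reg3b, an antibacterial lectin, stood at 10.7, 30.8 and 100 FPKM in BDL 1, 2 and 3 and at 1.98, 0.633 and 0.55 FPKM in Sham 1, 2 and 3, the largest rise of the class (log2 change 4.09 ± 0.77 SE, limma adjusted p = 0.0333). Its groups did not overlap, but its level varied widely within BDL, and it was called in only 2 of the 6 fits that each left a library out, those without BDL 1 (adjusted p = 0.029) and without BDL 3 (adjusted p = 0.0194). Mmp7, the matrix protease matrilysin of epithelia, stood at 230, 185 and 570 FPKM in BDL and at 34.0, 49.2 and 19.2 FPKM in Sham (3.14 ± 0.50, adjusted p = 0.0223). It was the most abundant riser of the class, and its call was lost without BDL 1 (adjusted p = 0.0522), Sham 1 (0.0833) or Sham 3 (0.0533).

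Lamb3 (chr1:193207699-193343878), the beta chain of laminin 332 of epithelial basement membranes, stood at 19.9, 20.7 and 18.7 FPKM in BDL and at 4.57, 4.48 and 5.77 FPKM in Sham (log2 change 1.81 ± 0.13 SE, limma adjusted p = 0.0044). The spread within each group was small beside the gap between groups, and the gene was called whichever library was left out.

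Other risers of the class varied more between libraries. Mfap2, a microfibril protein, rose by 1.83 ± 0.33 on the log2 scale (SE, limma adjusted p = 0.029), Fxyd6, a regulator of the sodium pump, by 1.66 ± 0.31 (adjusted p = 0.0295), Prss22, a secreted serine protease, by 1.6 ± 0.28 (adjusted p = 0.0264), and Asz1, a gene known from germ cells, by 1.8 ± 0.38 (adjusted p = 0.0408). These 4 calls were each lost in 3 or 4 of the 6 fits that left a library out, always including the fit without Sham 1 (adjusted p between 0.0838 and 0.145). Plat, tissue plasminogen activator, stood at 52.5, 27.1 and 36.0 FPKM in BDL and at 10.5, 20.1 and 12.2 FPKM in Sham (1.37 ± 0.31, adjusted p = 0.0454), a call that held in 1 of those fits, without Sham 2 (adjusted p = 0.0459).

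More genes of the biliary class fell, with means 12.8- to 30.5-fold lower for the first 3 named here. Spink4, a secreted protease inhibitor of mucosal epithelia, stood at 2.17, 5.86 and 2.24 FPKM in BDL 1, 2 and 3 and at 47.4, 189 and 76.6 FPKM in Sham 1, 2 and 3 (log2 change -4.44 ± 0.55 SE, limma adjusted p = 0.0146). S100g, the calcium carrier calbindin-D9k, stood at 1.48, 4.91 and 1.62 FPKM in BDL and at 67.5, 95.8 and 36.8 FPKM in Sham (-4.22 ± 0.46, adjusted p = 0.0107). C2cd4b, a nuclear protein gene known from inflamed endothelium and pancreatic islets, stood at 1.48, 1.65 and 2.24 FPKM in BDL and at 27.2, 17.3 and 24.4 FPKM in Sham (-3.09 ± 0.20, adjusted p = 0.00314). The groups were far apart in all 3 genes. Spink4 and C2cd4b were called whichever library was left out, and S100g in 5 of 6 such fits, the exception being without Sham 1 (adjusted p = 0.0573).

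Lamc3, a laminin gamma chain, stood at 16.8, 15.5 and 18.8 FPKM in BDL and at 75.5, 69.5 and 63.2 FPKM in Sham (log2 change -1.96 ± 0.14 SE, limma adjusted p = 0.0044), and it too was called in all 6 such fits. A list of 19 other tested laminin and basement membrane genes, which holds Lamb3 but not Lamc3, gave 1 call higher and 0 lower. Ppp1r1b, the protein phosphatase inhibitor DARPP-32, fell by 2.34 on the log2 scale (SE 0.31, adjusted p = 0.0146), and Cyp1a1, the classical target of the aryl hydrocarbon receptor, by 1.93 (SE 0.23, adjusted p = 0.0113). The calls of Ppp1r1b and Cyp1a1 were lost without Sham 1 (adjusted p = 0.0616 and 0.0506). Arc, an immediate early gene, fell by 1.78 (SE 0.28, adjusted p = 0.0201), and Ddit4l, an inhibitor of mTOR signalling, by 1.72 (SE 0.24, adjusted p = 0.0153). Without Sham 1 the adjusted p was 0.0817 for Arc and 0.0666 for Ddit4l.

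**Figure D3:**
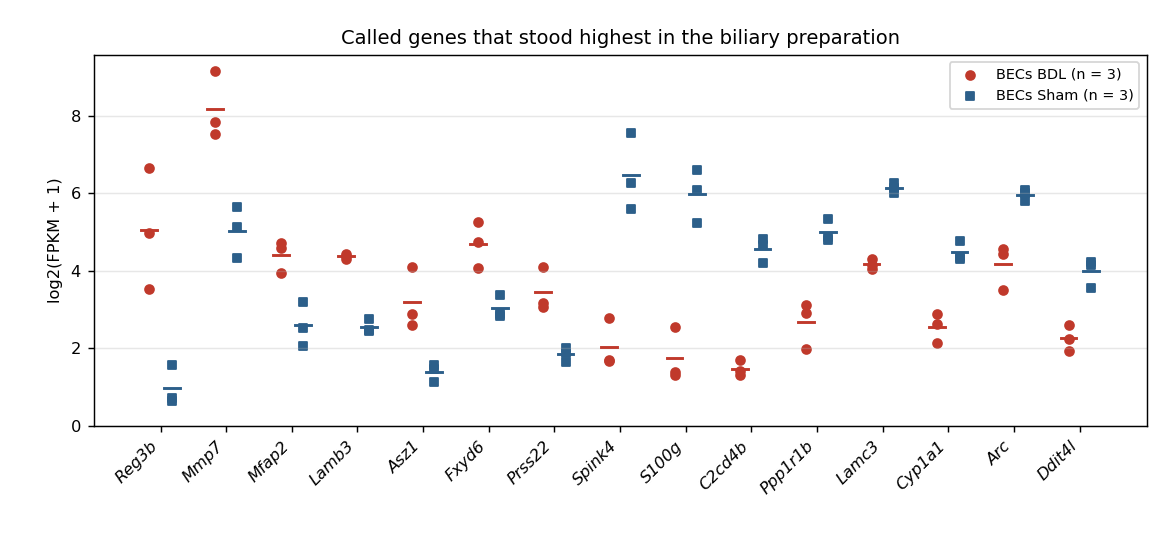
Level of each library as log2(FPKM + 1) for 15 of the called genes of the biliary class with the largest changes, with BDL as red circles left of Sham as blue squares and horizontal lines at group means. The groups do not overlap in any of the 15, which the rule for naming them required, and Lamb3, C2cd4b and Lamc3 show the tightest replicates.

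Pigr, the receptor that carries IgA across epithelia into bile, fell in these libraries although its class was MPH. It stood at 4.31, 14.5 and 15.5 FPKM in BDL and at 165, 321 and 132 FPKM in Sham (log2 change -4.12 ± 0.53 SE, limma adjusted p = 0.0146), with no overlap, and its call was lost without Sham 1 (adjusted p = 0.0651). In MPH it averaged 189 ± 122 FPKM in BDL and 339 ± 178 FPKM in Sham (SD, n = 3 each), so hepatocyte RNA, which fell in the BECs libraries, also carries it. Its part in the fall of Pigr was not tested. Slc26a3, an intestinal chloride-bicarbonate exchanger, was named after its values were seen. It stood at 0.137, 0.533 and 0.122 FPKM in BDL and at 3.62, 6.13 and 5.40 FPKM in Sham, so that it passed the level filter only through Sham, against log2 means of 0.02 in MPH and 0.06 in Kupffer-like cells over both conditions.

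Of 19 tested keratins and adhesion genes of the duct, 0 were called higher and 1 lower, near the 4.7% called lower among all tested genes, with a median change of -0.26. The member called was Eppk1, the keratin-binding epiplakin, at 5.34, 10.1 and 7.04 FPKM in BDL and 18.9, 22.4 and 13.1 FPKM in Sham (log2 change -1.18 ± 0.26 SE, limma adjusted p = 0.0437, lost in 5 of the 6 fits that left a library out). Krt7 had a change of 0.50 ± 0.16 (adjusted p = 0.106), with every BDL library above every Sham library, Krt19 of -0.34 ± 0.24 (adjusted p = 0.423), and Epcam of 0.02 ± 0.18 (adjusted p = 0.955). Spp1, the secreted phosphoprotein osteopontin, stood at 2243, 2185 and 1784 FPKM in BDL and at 2664, 2440 and 3153 FPKM in Sham (-0.41 ± 0.20, adjusted p = 0.24).

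Of 18 tested transcription factors of the duct, 5 were called lower and 0 higher, against 4.7% lower among all tested genes, with 1 positive change and a median of -0.44. Among those called, Hhex, a homeobox factor of early liver and bile duct, stood at 34.6, 34.0 and 31.2 FPKM in BDL and at 99.0, 74.1 and 73.6 FPKM in Sham (log2 change -1.27 ± 0.16 SE, limma adjusted p = 0.013). Prox1 (-1.65 ± 0.27, adjusted p = 0.0212), Foxa1 (-0.99 ± 0.18, adjusted p = 0.0266) and Foxa2 (-0.71 ± 0.16, adjusted p = 0.0413), which hepatocytes also use, fell as well. Hepatocyte and endothelial marker sums were lower in the same libraries, and their part in these falls was not tested. Sham means in BECs and MPH were 82.2 and 68.4 FPKM for Hhex, and 21.3 and 13.6 FPKM for Prox1. They were 28 and 7.77 FPKM for Foxa1, and 13.4 and 17.8 FPKM for Foxa2. For the hepatocyte marker Ttr they were 278 and 6223 FPKM. Sox9, the duct progenitor factor, had a change of -0.35 ± 0.21 (adjusted p = 0.344), with 84.8, 60.9 and 52.5 FPKM in BDL and 83.2, 91.8 and 73.9 FPKM in Sham.

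Notch genes gave 1 call in 18, near the 7.66% of all tested genes. It was the ligand Dll1 (log2 change -0.95 ± 0.22 SE, limma adjusted p = 0.0462, lost in all 6 fits that left a library out). The ligand Jag1 had a change of -0.07 ± 0.19 (adjusted p = 0.846) and the receptor Notch2 of -0.30 ± 0.19 (adjusted p = 0.359). Of 18 genes of the YAP and Hippo pathway, 2 were lower. Cyr61, a secreted YAP target, stood at 777, 1048 and 707 FPKM in BDL and at 2085, 1995 and 2039 FPKM in Sham (-1.29 ± 0.20, adjusted p = 0.0189), and Amotl2, a junction protein and YAP regulator, fell by 0.89 (SE 0.14, adjusted p = 0.0191). The Sham values of Cyr61 lay close together and all BDL values lay well under them. Of 19 genes of the primary cilium, 1 was lower, Cys1 (-0.86 ± 0.13, adjusted p = 0.017). Pkhd1, the gene of fibrocystin, stood at 12.0, 14.9 and 12.5 FPKM in BDL and at 24.7, 21.1 and 16.6 FPKM in Sham, a change that missed the threshold (-0.61 ± 0.17, adjusted p = 0.0791).

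Genes of the secretory machinery mostly had negative changes, and few were called. Of 18 tested channels, exchangers and water carriers, 1 was called higher and 3 lower (median -0.55), against 2.96% higher and 4.7% lower among all tested genes. Of the 18, 4 had positive changes. Cftr, the cAMP-gated chloride channel, stood at 10.8, 14.6 and 7.28 FPKM in BDL and at 4.96, 4.32 and 3.50 FPKM in Sham (log2 change 1.14 ± 0.24 SE, limma adjusted p = 0.0398). It did not overlap between groups, but the call held only without BDL 3 among the fits that left a library out, with adjusted p between 0.0828 and 0.112 in the other 5. Aqp1, the water channel, stood at 103, 109 and 152 FPKM in BDL and at 278, 283 and 234 FPKM in Sham (-1.13 ± 0.20, adjusted p = 0.0247). Endothelium also expresses Aqp1, and in Kupffer-like cells it averaged 433 ± 308 FPKM in BDL and 760 ± 141 FPKM in Sham (SD, n = 3 each). Atp1b1, a beta subunit of the sodium pump, fell (-1.14 ± 0.26, adjusted p = 0.0472). The call of Aqp1 held in 2 and that of Atp1b1 in 1 of the 6 fits that left a library out. The bicarbonate exchanger Slc4a2 (-0.39 ± 0.15, adjusted p = 0.158) and the chloride channel Ano1 (-0.51 ± 0.15, adjusted p = 0.0931) did not pass.

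Of 17 tested receptors and cAMP or calcium signalling genes, 2 were lower, the VIP receptor Vipr1 (log2 change -0.73 ± 0.15 SE, limma adjusted p = 0.0364) and the adenylyl cyclase Adcy6 (-0.64 ± 0.14, adjusted p = 0.0413). Sctr, the secretin receptor, stood at 3.28, 6.35 and 5.05 FPKM in BDL and at 4.15, 3.24 and 5.38 FPKM in Sham, which overlapped (0.15 ± 0.24, adjusted p = 0.739). Of 10 tested bile acid and anion carriers, 2 were lower, among them the efflux pump Abcb1a (-0.95 ± 0.22, adjusted p = 0.0482). Slc10a2, the apical bile acid carrier, had a change of -0.68 ± 0.30 (adjusted p = 0.213), and the bile acid receptor Gpbar1 of 0.60 ± 0.30 (adjusted p = 0.255). Of 19 mucin, trefoil and glycan genes, 11 passed the level filter, and 1 of these was lower, the ganglioside enzyme St3gal5 (-1.58 ± 0.20, adjusted p = 0.0125).

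**Figure D4:**
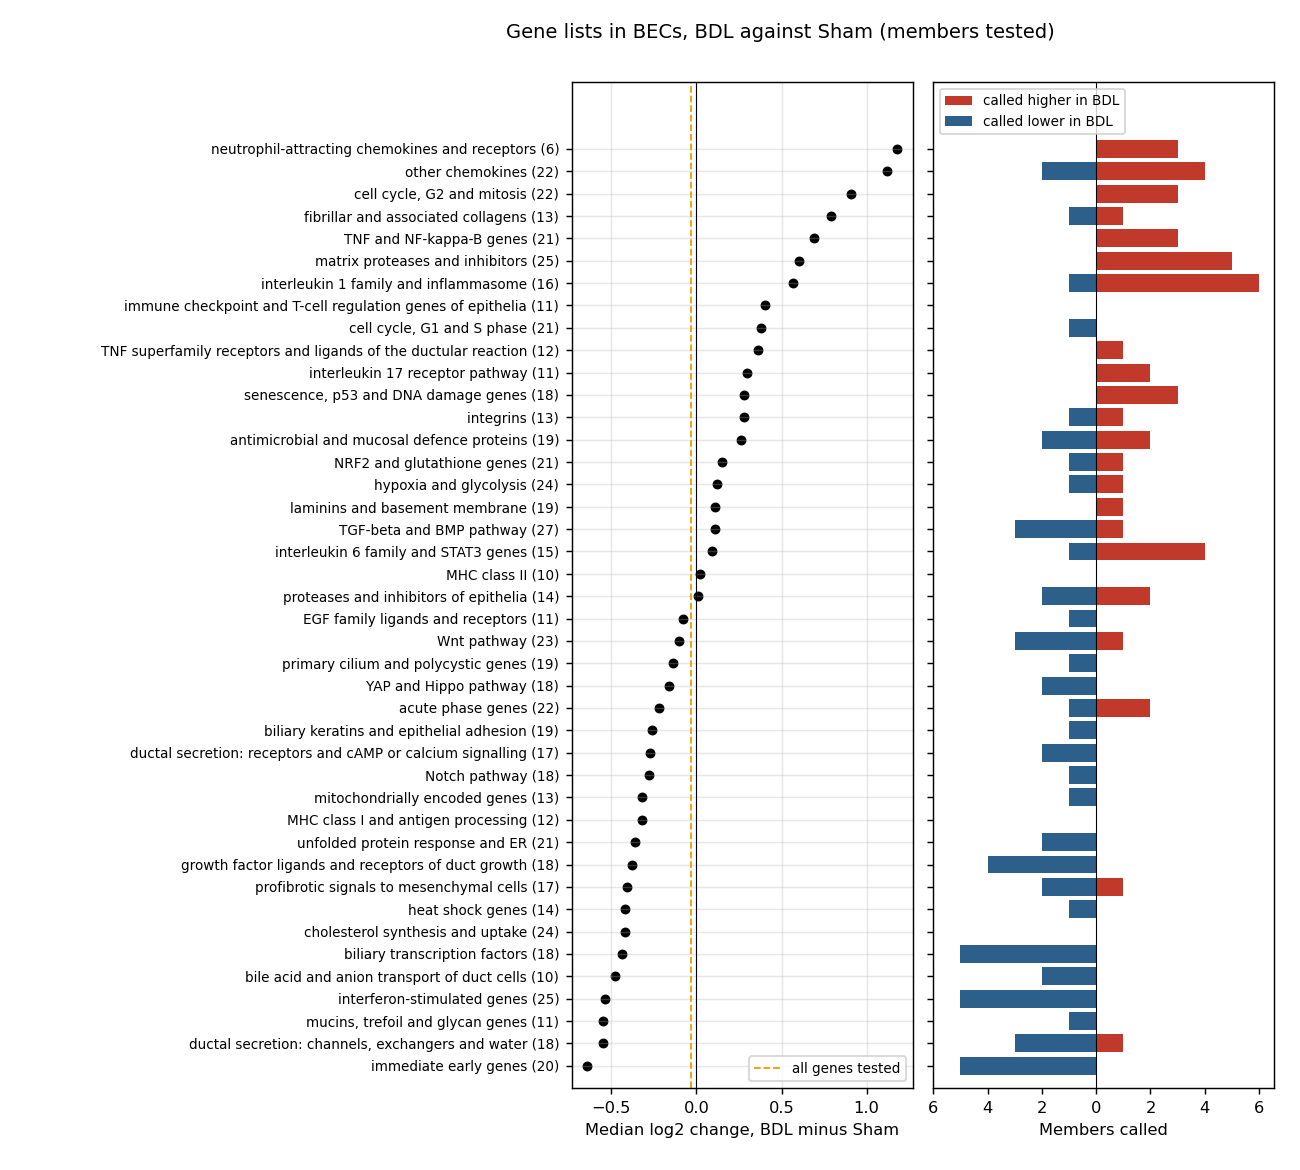
Median log2 change (BDL minus Sham, left) and number of members called higher or lower in BDL (right) for each gene list other than the cell type markers, with the number of members tested in parentheses and the median of all tested genes, -0.03, as a dashed line. Among these lists, chemokines (1.18 and 1.12) and mitotic genes (0.91) have the highest medians, and immediate early genes (-0.64) the lowest.

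Chemokine genes had the highest medians among the lists other than cell type markers, of which neutrophil markers stood higher (1.90). Of 6 tested neutrophil-attracting chemokines and their receptors, 3 were called higher and 0 lower (median 1.18), against 2.96% higher among all tested genes. The 3 include Cxcr2, which had to differ to be tested. Cxcl2 stood at 582, 457 and 367 FPKM in BDL 1, 2 and 3, all above the 59.3, 85.7 and 70.4 FPKM in Sham 1, 2 and 3 (log2 change 2.68 ± 0.23 SE, limma adjusted p = 0.00587), and was called whichever library was left out. Its neighbour Cxcl1, whose promoter holds the same GGAATTTCC run, stood at 308, 409 and 295 FPKM in BDL and at 211, 263 and 419 FPKM in Sham, which overlapped (0.22 ± 0.28, adjusted p = 0.668). Cxcl5, a further neutrophil chemokine of epithelia and of the biliary class, had a change of 0.74 ± 0.56 (adjusted p = 0.471). The platelet factor gene Pf4, itself a platelet marker, rose (1.05 ± 0.17, adjusted p = 0.0196). The neutrophil receptor and marker Cxcr2 stood at 1.06, 2.86 and 2.52 FPKM in BDL and at 0.38, 0.282 and 0.0515 FPKM in Sham, so that it passed the level filter only through BDL. Its call was lost in all 6 fits that left a library out.

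Of 22 other chemokine genes tested, 4 were higher and 2 lower (median 1.12). Ccl2, the monocyte chemoattractant, stood at 352, 521 and 202 FPKM in BDL and at 41.5, 60.7 and 89.1 FPKM in Sham (log2 change 2.44 ± 0.41 SE, limma adjusted p = 0.0233). Cxcl14, an epithelial chemokine, stood at 25.3, 15.6 and 21.2 FPKM in BDL and at 3.56, 5.74 and 2.75 FPKM in Sham (2.13 ± 0.26, adjusted p = 0.0123). Neither overlapped between groups. The myeloid receptor Ccr1 (2.36 ± 0.26, adjusted p = 0.00951) and the chemokine Ccl9 (1.99 ± 0.31, adjusted p = 0.0196) rose. Cxcl12, a chemokine of stroma and endothelium, fell by 1.23 (SE 0.17, adjusted p = 0.0146), and Cxcl9, an interferon-induced T cell chemokine named after its values were seen, stood at 2.30, 3.18 and 2.47 FPKM in BDL and at 6.01, 14.7 and 15.0 FPKM in Sham (-1.73 ± 0.33, adjusted p = 0.031).

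Of 16 tested genes of the interleukin 1 family and inflammasome, 6 were higher and 1 lower (median 0.57). Il1b, a cytokine of activated myeloid cells, stood at 484, 381 and 221 FPKM in BDL and at 94.8, 84.0 and 77.9 FPKM in Sham (log2 change 2.00 ± 0.29 SE, limma adjusted p = 0.0165). The inflammasome sensor Nlrp3 (2.33 ± 0.23, adjusted p = 0.00748), Il1a (2.34 ± 0.26, adjusted p = 0.00998) and the decoy receptor Il1r2 (2.16 ± 0.34, adjusted p = 0.0196) also rose. Il1f9, the epithelial and myeloid cytokine IL-36 gamma, stood at 17.7, 10.9 and 23.3 FPKM in BDL and at 1.25, 1.95 and 1.08 FPKM in Sham (2.87 ± 0.28, adjusted p = 0.00749). Nlrp6, an inflammasome gene of hepatocyte and gut epithelium, was the member called lower and was named after its values were seen. It stood at 0.387, 0.507 and 0.153 FPKM in BDL and at 2.45, 2.34 and 1.5 FPKM in Sham, so that it passed the level filter only through Sham.

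Among 15 interleukin 6 family and STAT3 genes, 4 were higher and 1 lower (median 0.09). Osm, the cytokine oncostatin M, stood at 18.8, 35.0 and 17.1 FPKM in BDL and at 3.83, 2.83 and 3.15 FPKM in Sham (log2 change 2.46 ± 0.27 SE, limma adjusted p = 0.00951), and Il6 at 39.3, 23.9 and 29.5 FPKM in BDL and 10.1, 17.1 and 13.4 FPKM in Sham (1.14 ± 0.24, adjusted p = 0.0398). Osm was called in all 6 fits that left a library out and Il6 in 0. Clcf1, a further cytokine of the family and the only called member of the biliary class, fell by 0.78 (SE 0.17, adjusted p = 0.0401). Of 11 genes of the interleukin 17 receptor pathway, the receptor Il17ra (1.08 ± 0.17, adjusted p = 0.0188) and the granulocyte factor Csf3 (1.6 ± 0.36, adjusted p = 0.0468) were higher and 0 lower. Of 21 TNF and NF-kappa-B genes, 20 had positive changes and 3 were called, the receptor Tnfrsf1b (1.89 ± 0.31, adjusted p = 0.0227), Tnfaip2 (1.87 ± 0.30, adjusted p = 0.0212) and the feedback enzyme Tnfaip3 (0.94 ± 0.18, adjusted p = 0.0319).

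Several genes known from myeloid cells were called whichever library was left out. Clec4e, the glycolipid receptor Mincle, stood at 59.4, 46.8 and 39.4 FPKM in BDL and at 2.02, 3.29 and 3.16 FPKM in Sham, a 17.2-fold difference of means (log2 change 3.69 ± 0.20 SE, limma adjusted p = 0.00177). Its neighbour and partner Clec4d rose by 3.23 (SE 0.26, adjusted p = 0.00476), Acod1, which makes itaconate in activated macrophages, by 3.02 (SE 0.28, adjusted p = 0.00691), and the neutrophil growth factor receptor Csf3r by 2.19 (SE 0.18, adjusted p = 0.00561). The protease Asprv1, known from epidermis and from neutrophils, rose by 3.27 (SE 0.34, adjusted p = 0.0095). The same held for the monocyte genes Itgam (1.82 ± 0.13, adjusted p = 0.0044) and F13a1 (2.20 ± 0.22, adjusted p = 0.00751). Of 10 tested neutrophil markers 5 were higher, against 2.96% of all tested genes. They were S100a8 (3.13 ± 0.53, adjusted p = 0.0257), S100a9 (2.82 ± 0.46, adjusted p = 0.023), Mmp9 (1.99 ± 0.22, adjusted p = 0.00998), Csf3r and Cxcr2. The last passed the level filter only through BDL and so had to differ to be tested. The neutrophil sum was 5.52 times and the monocyte sum 2.29 times that of Sham, so the rises of cytokines above came with more leukocyte RNA. How much of each rise the epithelium itself made was not tested.

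Antimicrobial and acute phase genes moved in both directions. Of 19 tested defence proteins, Reg3b and Lcn2 were higher and Spink4 and Pigr lower. Lcn2, the iron-binding lipocalin 2 of inflamed epithelia and neutrophils, stood at 240, 158 and 213 FPKM in BDL and at 35.5, 57.9 and 57.4 FPKM in Sham (log2 change 2.01 ± 0.25 SE, limma adjusted p = 0.0125), and was called whichever library was left out. Of 22 acute phase genes, 2 were higher and 1 lower. The protease inhibitor Serpina3n stood at 601, 93.3 and 385 FPKM in BDL and at 24.7, 32.5 and 29.2 FPKM in Sham (3.24 ± 0.66, adjusted p = 0.0392), and Cd14, the co-receptor for lipopolysaccharide, rose by 2.18 (SE 0.37, adjusted p = 0.0233). Apcs, a pentraxin of hepatocytes, fell by 1.46 (SE 0.18, adjusted p = 0.0125).

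Of 25 tested interferon-stimulated genes, 5 were lower and 0 higher, 2 had positive changes, and the median was -0.54. Among those called were Ifi44 (log2 change -1.13 ± 0.19 SE, limma adjusted p = 0.0219), the GTPases Igtp (-1.28 ± 0.26, adjusted p = 0.0354) and Irgm1 (-1.05 ± 0.22, adjusted p = 0.0384), and the signalling factor Irf9 (-0.76 ± 0.15, adjusted p = 0.0356). Further GTPases of the family, named after their values were seen, were steadier. Iigp1 stood at 6.38, 8.53 and 6.56 FPKM in BDL and at 26.1, 36.3 and 24.2 FPKM in Sham (-1.86 ± 0.19, adjusted p = 0.00849), and Tgtp2 at 1.58, 1.53 and 1.18 FPKM in BDL and 5.98, 8.48 and 10.4 FPKM in Sham (-1.91 ± 0.20, adjusted p = 0.00906). Both, and Irgm2 (-1.39 ± 0.14, adjusted p = 0.00749), were called whichever library was left out. All 12 genes of MHC class I and antigen processing had negative changes, but limma called 0 with either input, FPKM or voom on recovered reads, and 1 had an unadjusted p under 0.05, H2-T23 (-0.69 ± 0.23, adjusted p = 0.121). Of 10 MHC class II genes limma again called 0 with either input, and 1 had an unadjusted p under 0.05, Ctss (1.42 ± 0.48, adjusted p = 0.122).

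Of 25 tested matrix proteases and inhibitors, 5 were called higher and 0 lower (median 0.60), against 2.96% higher among all tested genes. Besides Mmp7, Plat and the neutrophil protease Mmp9, these were Timp1 and Plau. Timp1, the inhibitor of metalloproteinases, stood at 167, 48.5 and 80.9 FPKM in BDL and at 6.01, 12.0 and 14.7 FPKM in Sham (log2 change 2.97 ± 0.50 SE, limma adjusted p = 0.0255). Plau, urokinase, stood at 122, 144 and 54.4 FPKM in BDL and at 23.7, 27 and 29.5 FPKM in Sham (1.85 ± 0.36, adjusted p = 0.0318). No library of BDL overlapped one of Sham in either gene. The number of calls in this list ran from 0 to 5 over the 6 fits that left a library out.

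Among 13 integrins, Itga2 rose and Itga9 fell. Itga2, the collagen receptor subunit, stood at 10.4, 9.10 and 6.13 FPKM in BDL and at 1.12, 1.69 and 0.807 FPKM in Sham (log2 change 2.10 ± 0.23 SE, limma adjusted p = 0.0095), and was called whichever library was left out. Itgb6, a chain of the TGF-beta-activating integrin of biliary epithelium, had a change of 0.63 ± 0.36 (adjusted p = 0.328), with 9.46, 13.5 and 4.97 FPKM in BDL and 5.67, 7.10 and 3.55 FPKM in Sham. Of 13 collagens, 11 had positive changes (median 0.79), Col5a2 was higher (1.24 ± 0.28, adjusted p = 0.0447) and Col14a1 lower (-0.99 ± 0.21, adjusted p = 0.0383). Of the 13, 9 stood highest in the BECs preparation, which also held stellate and fibroblast markers at 942.4 to 1705 FPKM in BDL and 644.7 to 1099 FPKM in Sham, sums that overlapped.

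Of 17 tested profibrotic signals, 1 was called higher and 2 lower. Pdgfb, a mitogen for stellate cells and a gene of the biliary class, stood at 91.7, 81.0 and 48.2 FPKM in BDL and at 21, 25.3 and 31.6 FPKM in Sham (log2 change 1.44 ± 0.27 SE, limma adjusted p = 0.0304), with a call that held only without BDL 3 (adjusted p = 0.0125) among the fits that left a library out. Pdgfc stood at 6.30, 7.66 and 7.34 FPKM in BDL and at 24.5, 16.5 and 17.3 FPKM in Sham (-1.32 ± 0.18, adjusted p = 0.0141), a fall called in all 6 such fits, and Gas6, the ligand of the AXL receptor, fell by 0.88 (SE 0.20, adjusted p = 0.0456). Tgfb2, the TGF-beta isoform of bile ducts, had a change of 0.22 ± 0.24 (adjusted p = 0.615). Of 27 TGF-beta and BMP genes, 1 was higher, Tgfbi (1.24 ± 0.20, adjusted p = 0.0197), and 3 were lower, Bmp4 (-1.10 ± 0.14, adjusted p = 0.0137), Bmp2 (-1.13 ± 0.21, adjusted p = 0.0292) and the inhibitor Smad6 (-0.80 ± 0.14, adjusted p = 0.0251).

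Of 18 growth factor ligands and receptors of duct growth, 4 were lower and 0 higher. They were Vegfa (log2 change -1.11 ± 0.23 SE, limma adjusted p = 0.0384), Vegfc (-1.07 ± 0.19, adjusted p = 0.0269), the endothelial VEGF receptor Kdr (-1.07 ± 0.23, adjusted p = 0.0401) and Fgfr3, an FGF receptor of the biliary class. Fgfr3 stood at 31.6, 42.2 and 38.0 FPKM in BDL and at 93.4, 81.3 and 71.9 FPKM in Sham (-1.12 ± 0.17, adjusted p = 0.0179). Of 11 EGF family genes, the feedback inhibitor Errfi1 fell by 1.01 (SE 0.22, adjusted p = 0.0421), a call that held in 1 of the 6 fits that left a library out. Of 23 Wnt genes, Wnt10a was higher, at 6.99, 7.22 and 3.45 FPKM in BDL and 0.592, 0.843 and 1.93 FPKM in Sham (1.70 ± 0.32, adjusted p = 0.0304). Rspo3 (-1.86 ± 0.24, adjusted p = 0.0127), Wnt2 (-1.48 ± 0.27, adjusted p = 0.0287) and Lrp5 (-0.61 ± 0.11, adjusted p = 0.026) were lower, the 3 falls of that list. Rspo3, Wnt2, Bmp2 and Kdr are known as endothelial genes of the liver, and the part of endothelial RNA in their falls was not tested. Sham means in BECs and Kupffer-like cells were 14.6 and 4.28 FPKM for Rspo3, and 6.98 and 18.0 FPKM for Wnt2. They were 17.2 and 202 FPKM for Bmp2, and 13.5 and 145 FPKM for Kdr. Of 12 endothelial markers, a list that holds Kdr itself, 8 were lower in the same libraries. These included Oit3 (-2.32 ± 0.25, adjusted p = 0.0095), Dnase1l3 (-2.23 ± 0.24, adjusted p = 0.0095) and Vwf (-1.33 ± 0.17, adjusted p = 0.013).

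Tnfrsf12a, the TWEAK receptor known for its part in the ductular reaction, stood at 166, 168 and 115 FPKM in BDL and at 194, 228 and 210 FPKM in Sham (log2 change -0.51 ± 0.20 SE, limma adjusted p = 0.162). Of the 12 tested members of its list, 1 was higher, the ligand Tnfsf9 (0.98 ± 0.20, adjusted p = 0.0345).

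Of 22 tested genes of G2 and mitosis, all 22 had positive changes (median 0.91) and 3 were called higher, against 2.96% of all tested genes. They were the mitotic cyclin Ccnb1 (log2 change 1.2 ± 0.25 SE, limma adjusted p = 0.0384), the centromere histone Cenpa (0.95 ± 0.18, adjusted p = 0.0317) and the kinesin Kif23 (0.92 ± 0.21, adjusted p = 0.0444). Mki67, the proliferation marker, stood at 11.4, 13.1 and 5.29 FPKM in BDL and at 2.54, 3.19 and 4.9 FPKM in Sham, without overlap but short of the threshold (1.22 ± 0.34, adjusted p = 0.0794). The number of mitotic genes called ran from 0 to 8 over the fits that left a library out. Of 21 genes of G1 and S phase, 16 had positive changes (median 0.38). Of these 21 genes, 0 were called higher and 1 lower, the cyclin Ccnd2 (-0.83 ± 0.12, adjusted p = 0.0152). Of 18 genes related to senescence, p53 or DNA damage, 3 were higher, Mdm2 (0.95 ± 0.18, adjusted p = 0.0294), Lmnb1 (1.15 ± 0.24, adjusted p = 0.0362) and Cdkn2b (0.78 ± 0.17, adjusted p = 0.0425). With 1 library left out, the call of Mdm2 held in 2 of 6 fits and those of Lmnb1 and Cdkn2b in 1 each. The 3 rises are not read as a change in senescence. Cdkn1a, the gene of p21, had a change of 0.41 ± 0.18 (adjusted p = 0.219).

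Of 20 tested immediate early genes, which tissue dissociation also induces, 5 were called lower and 0 higher (median -0.64). Fos stood at 950, 1163 and 1270 FPKM in BDL and at 2201, 1925 and 1986 FPKM in Sham (log2 change -0.86 ± 0.19 SE, limma adjusted p = 0.0401), Jun at 601, 836 and 855 FPKM in BDL and 1551, 1478 and 1611 FPKM in Sham (-1.03 ± 0.20, adjusted p = 0.0307), and Atf3 at 730, 1068 and 893 FPKM in BDL and 1903, 1691 and 2141 FPKM in Sham (-1.10 ± 0.21, adjusted p = 0.0303). The groups did not overlap in any of these 3 genes, and each call was lost in at least 4 of the 6 fits that left a library out. Handling times of the livers were not at hand, and their part was not tested. Of 21 genes of the unfolded protein response, Herpud1 (-0.81 ± 0.18, adjusted p = 0.0402) and Atf4 (-0.63 ± 0.14, adjusted p = 0.0426) were lower and 0 higher, against 4.7% lower among all tested genes. Both calls were lost in all 6 such fits. Of 14 heat shock genes, Dnajb1 was lower (-0.81 ± 0.17, adjusted p = 0.0393), a call that held in 1 of the 6.

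Of 24 hypoxia and glycolysis genes, the hexokinase Hk2 rose by 1.41 (SE 0.29, limma adjusted p = 0.0379) and Epas1, the gene of HIF-2 alpha, fell by 0.90 (SE 0.20, adjusted p = 0.046). These 2 calls are near the 7.66% of all tested genes. Of 21 NRF2 and glutathione genes, 1 was called higher and 1 lower. Slc7a11, the cystine carrier and NRF2 target, stood at 10.8, 4.09 and 5.17 FPKM in BDL and at 0.60, 0.945 and 0.488 FPKM in Sham. It passed the level filter only through BDL and was called in only 1 of the 6 fits that left a library out, while Gstm1, a glutathione transferase of the MPH class, fell by 1.40 (SE 0.23, adjusted p = 0.021). Of 24 cholesterol genes 2 had positive changes (median -0.42), limma called 0 with either input, and 5 had an unadjusted p under 0.05, the smallest being that of Dhcr7 (-0.60 ± 0.18, adjusted p = 0.0915).

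Of the 10 largest falls by the rule for named genes, Spink4 and S100g are of the biliary class and are described above, and the others include hepatocyte transcripts. Fabp1, the liver fatty acid binding protein, stood at 1.58, 1.29 and 0 FPKM in BDL and at 158, 57.3 and 99.5 FPKM in Sham (log2 change -5.76 ± 0.49 SE, limma adjusted p = 0.00723). It had the largest change of the hepatocyte genes named and was called whichever library was left out. Serpina1e (-4.29 ± 0.58, adjusted p = 0.0163), Ces1c (-3.89 ± 0.55, adjusted p = 0.0175) and Cyp1a2 (-3.82 ± 0.63, adjusted p = 0.0253) also fell. All 16 hepatocyte markers had negative changes (median -2.28), and Ttr was the member called (-2.18 ± 0.28, adjusted p = 0.013). Mup3, a major urinary protein gene with sex-dependent expression, stood at 2.61, 0.205 and 0.0455 FPKM in BDL and at 336, 120 and 13.2 FPKM in Sham (-5.65 ± 1.2, adjusted p = 0.0474), with changes of -5.81 between the male and -3.66 between the female libraries. The summed hepatocyte level in Sham was 6.30 times that in BDL. In MPH itself the changes were -5.58 for Fabp1, -7.09 for Mup3, -3.94 for Serpina1e, -2.71 for Cyp1a2, -1.57 for Ces1c and -1.36 for Ttr. The difference of Fabp1 between BECs and MPH was -0.17 (limma adjusted p = 0.953). Among hepatocyte markers, Apoa1 (0.60) and Fgb (1.66) had positive changes in MPH. The parts of hepatocyte number and of level per hepatocyte in the falls were not tested.

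The response of BECs was set against those of the other preparations as an interaction over 12 libraries. Against Kupffer-like cells, 520 of 14874 genes responded differently (3.5%), 200 more positively in BECs (1.34%) and 320 more negatively (2.15%). Against MPH the count was 237 of 14780 (1.6%), 106 more positively in BECs (0.717%) and 131 more negatively (0.886%). Over the fits that left out 1 library, the first count ran from 38 to 1773 and the second from 51 to 338. C2cd4b and S100g differed from both, and were called against both in all 12 such fits. The change of C2cd4b was -3.09 in BECs, -0.21 in Kupffer-like cells and -0.26 in MPH, where it was at or near 0 FPKM (limma adjusted p of the difference 0.0012 against Kupffer-like cells and 0.00231 against MPH). S100g, with -4.22 in BECs, had 1.58 in MPH (adjusted p of the difference 0.00231). Genes near 0 in a preparation cannot fall there, which sets a floor under such differences. Spink4 also differed from both preparations. Lamb3 rose by 1.81 in BECs, against -0.01 in Kupffer-like cells (limma adjusted p of the difference 0.0173, called in 9 of the 12 fits). In Kupffer-like cells it averaged only 0.425 FPKM in BDL and 0.381 FPKM in Sham. The difference of Lamb3 from MPH, where its change was 0.41, was not called (1.40, limma adjusted p = 0.108).

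Some other differences set changes of opposite sign beside each other, although those of Krt19 and Tnfrsf12a in BECs were not called. The difference of Krt19 from Kupffer-like cells was called in 3 of the 12 fits that left out 1 library. That of Tnfrsf12a was called in 9 of 12 against Kupffer-like cells and in 7 of 12 against MPH. Krt19 had a change of -0.34 in BECs but 1.59 in Kupffer-like cells, where it averaged 11.2 ± 2.40 FPKM in BDL and 3.26 ± 1.83 FPKM in Sham (SD, n = 3 each; limma adjusted p of the difference 0.0425). Tnfrsf12a had a change of -0.51 in BECs, against 1.54 in Kupffer-like cells (adjusted p of the difference 0.0248) and 2.77 in MPH (0.0228). In MPH it averaged 57.9 ± 42.9 FPKM in BDL and 6.26 ± 0.402 FPKM in Sham, levels still below the 149 ± 30.0 and 211 ± 17.5 FPKM of BDL and Sham BECs. Pdgfb rose by 1.44 in BECs, against -0.82 in Kupffer-like cells (limma adjusted p of the difference 0.0198, called in 9 of 12 such fits). Its difference from MPH was 1.76 and was not called (limma adjusted p = 0.134). Eppk1 fell in BECs (-1.18) and had a change of 2.30 in MPH (adjusted p of the difference 0.0018). Cftr rose in BECs and was near 0 FPKM in both other preparations. Cxcl2, in contrast, had changes of 2.68, 1.93 and 2.95 in BECs, Kupffer-like cells and MPH, and its difference from Kupffer-like cells was 0.75 (adjusted p = 0.265).

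**Figure D5:**
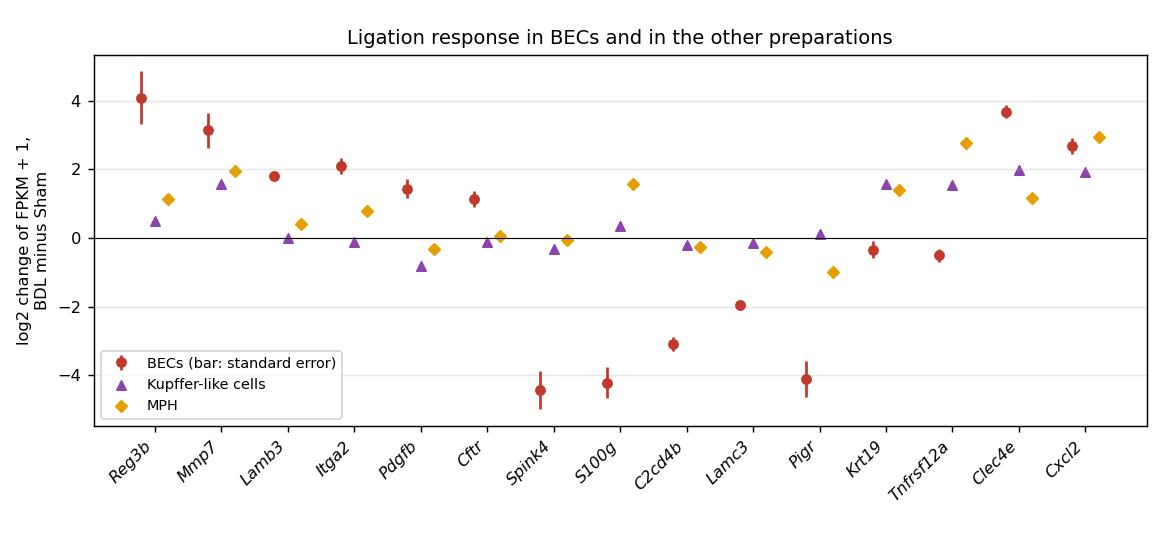
Change of 15 genes (log2 of FPKM + 1, BDL minus Sham) in BECs as red circles with standard errors, in Kupffer-like cells as purple triangles and in MPH as orange diamonds. Spink4, S100g, C2cd4b and Lamc3 fell by 1.96 to 4.44 in BECs and were between -0.40 and 1.58 in the other preparations, and Cxcl2 was between 1.93 and 2.95 in all 3.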

How the data were processed

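Polyadenylated RNA of mouse liver cells was sequenced after TRIzol extraction and VAHTS Universal V6 library preparation, per the labels' protocols. Per the submitters' processing notes, the tools were CASAVA 1.8, fastp, HISAT2 2.0.5, featureCounts 1.5.0-p3 and DESeq2 1.20.0, with GRCm38 (mm10). Not given in the sources used here were the annotation release, strandedness and fastp version. Without known strand, reads of a gene and an antisense partner cannot be told apart, and near-identical genes such as the Mup, Serpina1 and Ces families may share reads. The deposited table holds FPKM values that the authors computed, 1 column per library. Library sizes were recovered as the smallest size at which FPKM times gene length gave whole reads (97.9% to 98.1% of values below 200 reads in BECs, within 0.02). Replicates differed by more than read sampling (chi-square per degree of freedom 31 to 86.4), and none was a repeat of another.

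Values were analysed as log2(FPKM + 1) by limma (version 3.58.1, R 4.3.3), a linear model with moderated variance (trend and robust options, 2-sided). Genes tested had to reach 1 FPKM in 3 or more of the 6 BECs libraries. P-values were adjusted over all of them (Benjamini-Hochberg) and called under 0.05. Interactions used 12 libraries. Means are given with SD over 3 libraries and changes with the standard error of the fit. Groups came from the cell type and treatment labels. Replicate numbers follow accession order and pair nothing. The members, the 52 lists and the settings were chosen with earlier results of these data known. The rule for named genes took the 10 largest rises and falls overall and the 8 largest in each direction in the biliary class (called, non-overlapping groups, mean of 5 FPKM or more in the higher group). It added per list the 5 called members with the smallest p, or 2 members where none was called, a fixed set of duct genes, and the 5 largest differences per direction of each interaction. Some genes it takes are not reported here. Genes outside it are marked as named after their values were seen. Promoters were read from RefSeq (GRCm38.p6). Gene lengths and coordinates are of the GENCODE annotation on GRCm38. The pipeline was tested on simulated data. Settings tried were other pseudocounts, filters, scalings, limma voom, no trend, a fold threshold, all 18 libraries in 1 model and each library left out. Scaling to recovered reads and sex as a covariate were added after seeing the data.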

Additional observations from a re-analysis of the deposited data

Results flagged for a closer look

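Genes were set apart here when the BDL response of BECs differed from that of another preparation in a limma interaction over 12 libraries. Values are differences of log2 changes, BECs minus the other preparation. For the rule that takes the 5 largest differences per direction, BECs exceeded Kupffer-like cells for the immunoglobulin joining segments Iglj1 (5.88) and Ighj4 (4.83), the lymphotoxin gene Ltb (3.60), Reg3b (3.59) and Mir142b (3.35). Saa2 (-5.86), Apoa1 (-5.71), Apoa2 (-5.28), Fgb (-5.18) and Fgg (-5.16), all acute phase or lipoprotein genes of hepatocytes, ran the other way. Summed B and plasma cell markers ranged from 282.9 to 2594 FPKM in BDL and from 209.9 to 2196 FPKM in Sham BECs, and the part of such RNA in Iglj1 and Ighj4 was not tested. Against MPH, BECs were more positive for Sult2a8 (4.86), Bdh1 (3.21), Zap70 (3.00), Cep85 (2.56) and Clec4e (2.52), and more negative for S100g (-5.80), Spink4 (-4.38), Cyp3a13 (-3.59), Eppk1 (-3.48) and Retreg1 (-3.35). Sult2a8 fell in both, with changes of -2.18 in BECs and -7.04 in MPH. Its BECs means were 6.36 FPKM in Sham and 0.0216 FPKM in BDL, near the floor. It did not pass the level filter of the BECs comparison. Bdh1, Zap70 and Cep85 had changes of 0.27, 1.14 and 0.79 in BECs, none called, against -2.94, -1.86 and -1.77 in MPH.

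Genes named for their change within the biliary class or as fixed duct genes were set apart as well. Against Kupffer-like cells the differences were positive for Pdgfb (2.25), Asz1 (1.85), Lamb3 (1.82), Fxyd6 (1.61), Prss22 (1.58) and Cftr (1.25). They were negative for S100g (-4.57), Spink4 (-4.12), C2cd4b (-2.88), Ppp1r1b (-2.15), Tnfrsf12a (-2.05), Krt19 (-1.93), Lamc3 (-1.82) and Cyp1a1 (-1.44). Against MPH they were negative for Tnfrsf12a (-3.28), C2cd4b (-2.83), Arc (-2.58), Cyp1a1 (-1.80) and Lamc3 (-1.57). Of the 24 differences from Kupffer-like cells, 3 were called in all 12 fits that left out 1 library (S100g, C2cd4b and Lamc3), and of the 15 from MPH, 6 were (Cep85, Clec4e, S100g, Spink4, Eppk1 and C2cd4b). Groups of 3 were too small for a search for outlying libraries.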

How the results depend on the processing

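No paired analysis was possible because the BDL and Sham libraries of BECs share no replicate number in the labels. The main fit gave 1040 calls (402 higher, 638 lower). Refits gave 81 (50 and 31) with no filter on level and 49 (33 and 16) under a fold threshold of 1.5. With sex as a covariate 576 (248 and 328) were called, and 261 were higher at FPKM of at least 5. Each refit was counted anew, so its calls need not be among the 1040. Leaving out single libraries gave 86 to 1033 calls, 55 to 472 higher and 31 to 561 lower, the fewest without Sham 1. For the difference from Kupffer-like cells (520 called, 200 positive and 320 negative), a pseudocount of 0.1 gave 318 (128 and 190), no filter gave 13 (4 and 9), a common sum gave 433 positive and 171 negative, quantile normalization gave 336 positive, and leaving out single libraries gave 38 to 1773 (15 to 810 and 22 to 963). For the difference from MPH (237 called, 106 and 131), a pseudocount of 0.1 gave 112 (41 and 71), no filter 86 (39 and 47), FPKM of at least 5 gave 122 (40 and 82), 1 model of all 18 libraries 414 (193 and 221), and leaving out single libraries 51 to 338 (23 to 167 and 28 to 171). The causes were not tested.

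Named genes that turned sign were small or uncalled. Leaving out single libraries moved Epcam between -0.05 and 0.16, Sctr between -0.03 and 0.36, Jag1 between -0.19 and 0.09, Saa2 between -0.74 and 1.03, Bdh1 between -0.15 and 0.62 and Ighg2b between -0.30 and 2.33. Epcam stood at -0.04 under quantile normalization, and with sex as a covariate Sctr stood at -0.03, Jag1 at 0.03 and Bdh1 at -0.00. The median change of all genes lay between -0.04 and 0.04 in every setting run. Genes near the filter of 1 FPKM rest on the fewest reads.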
